A study of Homo sapiens with 4 samples.

Results

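A-kinase anchoring proteins (AKAPs) and the regulatory subunits of protein kinase A (PKA) were examined in K562 cells, a long-established human line derived from chronic myeloid leukemia. The 10 genes were taken by symbol from the gene tables: the anchors AKAP12, AKAP1, AKAP8, AKAP9, AKAP10, AKAP11 and AKAP13 and the regulatory subunits PRKAR1A, PRKAR2A and PRKAR2B, out of 25702 genes counted. K562 cells carried either the LeGO-iG2 plasmid expressing RUNX1::ERG, a fusion of the Runt and Ets DNA-binding domains, or the empty LeGO-iG2 vector. The cells were otherwise untreated and transfected transiently in bulk, with 2 biological replicates in each group, and poly(A)-enriched RNA was sequenced from each. The genes belong to 2 families, but the set was chosen by the log2 fold change of AKAP12 in this same comparison, which was known beforehand and among the larger rises. The members' values are therefore given as a description, without a test.

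PKA is held inactive by its regulatory subunits, which bind and block the catalytic subunits until cyclic AMP (cAMP) is bound. AKAPs hold the regulatory subunits at particular places in the cell, together with phosphatases, phosphodiesterases and other kinases, so that cAMP acts locally. AKAP12, also called gravin or SSeCKS, is a large scaffold under the plasma membrane that binds PKA, protein kinase C, Src and the cytoskeleton. In the megakaryocytic lineage, PKA is known mainly for restraining platelet activation.

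Because RUNX1::ERG keeps both DNA-binding domains, the start regions of AKAP12 and of PRKAR2B, the most abundant of the 10 transcripts, are shown. Each is the 300 bases from 250 before to 50 after a RefSeq transcript start of GRCh38.p14, written 5′ to 3′ on the strand of the gene. Capitals mark, on either strand, the ETS core GGAA and the RUNX sites TGTGGT and TGCGGT.
AKAP12 start 1 (chr6:151239717-151240016, + strand): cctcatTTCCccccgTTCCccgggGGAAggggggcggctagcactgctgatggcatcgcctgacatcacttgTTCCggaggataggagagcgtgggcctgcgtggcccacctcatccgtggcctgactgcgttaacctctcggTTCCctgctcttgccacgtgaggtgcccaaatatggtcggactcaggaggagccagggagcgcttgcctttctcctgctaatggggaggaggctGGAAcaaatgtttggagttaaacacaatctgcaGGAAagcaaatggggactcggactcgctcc
AKAP12 start 2 (chr6:151325281-151325580, + strand): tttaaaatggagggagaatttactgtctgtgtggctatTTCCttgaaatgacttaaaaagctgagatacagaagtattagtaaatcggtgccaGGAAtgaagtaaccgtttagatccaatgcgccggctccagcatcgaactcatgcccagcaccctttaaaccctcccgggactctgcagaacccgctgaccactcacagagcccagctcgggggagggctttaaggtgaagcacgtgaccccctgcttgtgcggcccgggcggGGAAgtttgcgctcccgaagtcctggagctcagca
AKAP12 start 3 (chr6:151341456-151341755, + strand): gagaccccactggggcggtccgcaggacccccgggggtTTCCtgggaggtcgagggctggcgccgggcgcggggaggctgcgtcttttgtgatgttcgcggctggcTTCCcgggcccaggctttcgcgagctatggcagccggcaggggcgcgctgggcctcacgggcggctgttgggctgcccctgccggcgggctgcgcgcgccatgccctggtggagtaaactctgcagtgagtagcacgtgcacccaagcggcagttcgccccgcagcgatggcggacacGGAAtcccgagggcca
PRKAR2B start 1 (chr7:107044455-107044754, + strand): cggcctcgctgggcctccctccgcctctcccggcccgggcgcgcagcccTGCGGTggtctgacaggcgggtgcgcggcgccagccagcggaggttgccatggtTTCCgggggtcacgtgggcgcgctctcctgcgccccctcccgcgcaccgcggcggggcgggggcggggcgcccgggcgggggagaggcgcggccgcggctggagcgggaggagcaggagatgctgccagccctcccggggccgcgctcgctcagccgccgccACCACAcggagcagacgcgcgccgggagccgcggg
The 3 AKAP12 windows held 7, 3 and 3 GGAA cores, a motif present in 95.5% of 35116 windows of the same length. None of the 3 contained TGTGGT (in 13.1% of all windows), TGCGGT (7.29%), the longer ETS forms AGGAAG (33.6%) and CGGAAG (19.5%) or the cAMP response element TGACGTCA (1.85%). The PRKAR2B window held 1 GGAA core, 1 TGTGGT and 1 TGCGGT. RUNX sites were also found in AKAP8 (TGTGGT, 2 matches), in 1 of the 2 windows of AKAP9 (TGTGGT) and in 2 of the 5 overlapping or neighbouring windows of PRKAR1A (TGCGGT). Among the other members, TGACGTCA was found only in PRKAR1A, in a stretch shared by 2 of its 5 windows. A match of letters is a description of the sequence and not a binding site.

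The libraries held 59695387 to 82352144 counts. The parts of the fusion checked the labels: both empty vector libraries held 4 counts of ERG, against 80443 and 27218 in RUNX1::ERG replicates 1 and 2. RUNX1 had 4736 and 3453 counts with the empty vector and 66232 and 28769 with RUNX1::ERG. RUNX1::ERG replicate 1 thus held more reads of both fusion parts than replicate 2. All 10 K562 markers fixed for the check were detected in every library, from 103 CPM (counts scaled to a common library size) for LMO2 to 8412 for HBE1. The scaling was edgeR's TMM method. Of these 10 markers, TAL1 rose from 197 and 197 to 323 and 308 CPM (adjusted p = 0.025, edgeR). The other 9 did not pass at 0.05, among them TFRC at 709 and 1275 against 570 and 764 CPM. In bulk RNA, a change in the share of cells that express a gene and a change in RNA per cell cannot be told apart.

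AKAP12 (NCBI gene 9590; chromosome 6 of GRCh37, 151561102 to 151679694, plus strand) was low with the empty vector and high with RUNX1::ERG. Its counts were 324 and 438 in the empty vector libraries and 6604 and 5649 in RUNX1::ERG replicates 1 and 2. In scaled CPM these were 5.38 and 6.21 against 78.3 and 78.6. The 2 RUNX1::ERG libraries stood at almost the same level and far above both empty vector libraries. The means were 5.8 ± 0.588 and 78.5 ± 0.176 (SD, n = 2 each), a 13.5-fold difference with a log2 fold change of 3.76 (standard error 0.19). With any one library left out, the log2 fold change lay between 3.65 and 3.86. The ratio of RUNX1::ERG replicate 1 to replicate 2 was 0.997 for AKAP12, while the scaled CPM of ERG was 954 and 379 in those libraries. No exon of another annotated gene overlapped the exons of AKAP12.

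**Figure D1:**
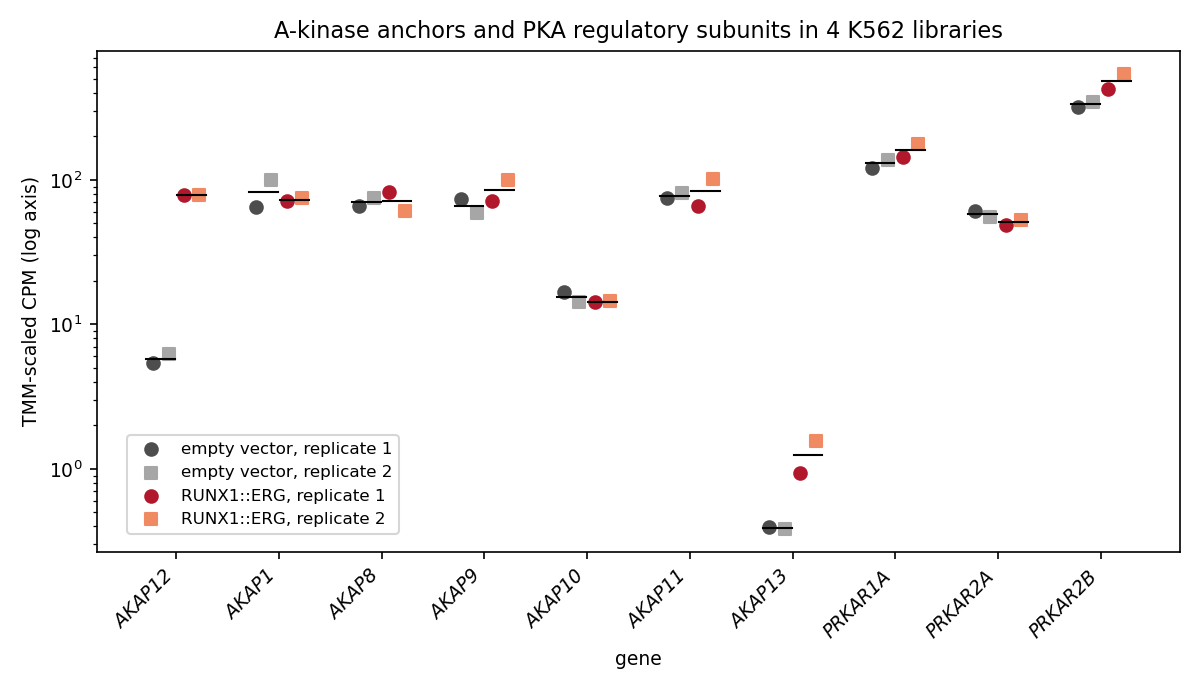
TMM-scaled CPM on a log axis (vertical) of the 10 genes (horizontal) in each of the 4 libraries, with a bar at each group mean (n = 2). AKAP12 moved from 5.38 and 6.21 to 78.3 and 78.6, AKAP13 stayed below 2 CPM in every library, and PRKAR2B was the highest gene in every library.

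AKAP13 was the other anchor whose groups lay apart. It had only 24 and 27 counts with the empty vector and 79 and 113 with RUNX1::ERG. Both RUNX1::ERG libraries were above both controls, at 0.937 and 1.57 CPM against 0.398 and 0.383. Its log2 fold change was 1.68 (standard error 0.48), and without RUNX1::ERG replicate 2 it was 1.24. Exons of 4 antisense RNAs overlap those of AKAP13, and since the strand setting of the counting is not known, its few reads cannot be assigned to it with certainty. Exons of AKAP1, AKAP8, AKAP9 and PRKAR2A also overlap a gene on the opposite strand. PRKAR1A shares 546 exon bases with a noncoding RNA on the same strand.

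The other 5 anchors showed overlapping groups. AKAP1, which anchors PKA at the outer mitochondrial membrane, was at 65.4 and 99.3 CPM with the empty vector and at 71 and 75 with RUNX1::ERG, so that both RUNX1::ERG libraries lay between the 2 controls. AKAP8, an anchor of the nucleus, was at 65.7 and 74.9 against 81.9 and 60.7 CPM. Here the RUNX1::ERG libraries were the highest and the lowest of the 4. AKAP9, which anchors PKA at the centrosome and the Golgi apparatus, was at 73.3 and 59 against 71.3 and 99.2 CPM, with a log2 fold change of 0.37 (standard error 0.20). Only RUNX1::ERG replicate 2 exceeded both controls, and without that library the value was 0.10. AKAP10, an anchor that can bind both types of regulatory subunit, was at 16.7 and 14.4 against 14.4 and 14.5 CPM. AKAP11, a scaffold that also binds glycogen synthase kinase and a phosphatase, was at 74.7 and 81 against 66.2 and 102 CPM, and its RUNX1::ERG libraries fell on either side of the controls. The log2 fold changes of AKAP1, AKAP8, AKAP10 and AKAP11 ran from -0.17 to 0.11, each with a standard error of 0.18 to 0.20.

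The 3 regulatory subunits had groups that did not overlap, in different directions. Groups also lay apart in 47.2% of all genes tested, in either direction. PRKAR2B, the type II beta subunit, had 320 and 347 CPM with the empty vector and 426 and 545 with RUNX1::ERG. The means were 333 ± 18.6 and 486 ± 84 (SD, n = 2 each), with a log2 fold change of 0.54 (standard error 0.16), and this value was 0.34 without RUNX1::ERG replicate 2. PRKAR1A, the type I alpha subunit, was at 121 and 138 against 144 and 178 CPM, and its log2 fold change was 0.31 with a standard error of 0.17. Without RUNX1::ERG replicate 2 this value was 0.13, and without replicate 1 it was 0.46. The gap between the nearest libraries of its groups was small beside the spread within each. PRKAR2A, the type II alpha subunit, was at 61.4 and 55.7 against 48.9 and 52.9 CPM, and its log2 fold change was -0.20 with a standard error of 0.16.

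In the fit over all genes, 1 of the 10 members (AKAP12) passed the threshold of 0.05 on the adjusted p of edgeR's quasi-likelihood test, beside 4.79% of the 15394 genes tested. All 10 passed the filter on low counts. Both RUNX1::ERG libraries lay above both controls in 4 members and below them in 1, beside 25.1% and 22.1% of all genes tested, or 47.2% in either direction. The median log2 fold change of the members was 0.21, against 0.00 over all genes tested. Since the members were chosen with this comparison known, nothing is read from these shares.

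**Figure D2:**
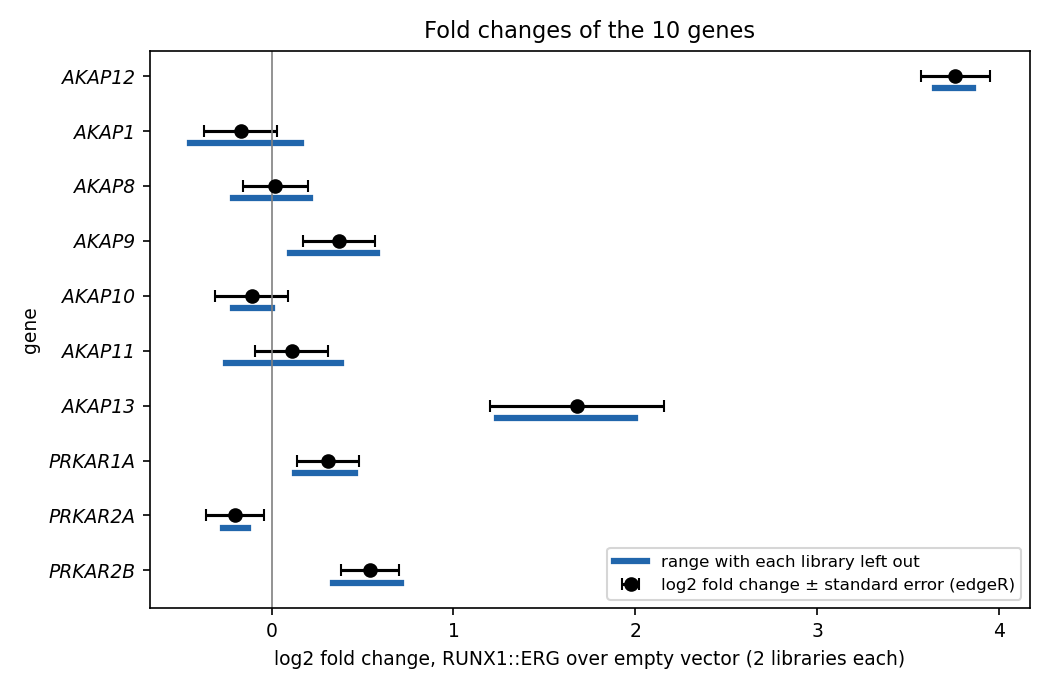
Log2 fold change of RUNX1::ERG over the empty vector (horizontal) for the 10 genes (vertical), as a point with its standard error from edgeR, and as a blue bar the range over 4 fits that each left out one library. AKAP12 at 3.76 stands apart from the rest, and the bars of AKAP1, AKAP8 and AKAP11 cross 0.

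Levels of different genes were compared per kilobase (kb) of exon, taking the exons of all annotated transcripts of a gene together. With the empty vector, PRKAR2B was highest at 26.5 ± 1.48 CPM per kb (SD, n = 2), followed by AKAP1 (15.4 ± 4.49), AKAP8 (11.2 ± 1.03), PRKAR1A (10.3 ± 0.953), AKAP11 (7.85 ± 0.446), PRKAR2A (6.73 ± 0.46), AKAP10 (3.21 ± 0.329) and AKAP9 (2.5 ± 0.381). AKAP12 came next to last at 0.66 ± 0.067 CPM per kb, and AKAP13 last at 0.0193. Of the neighbours in this order, the libraries of AKAP8 and PRKAR1A overlapped and the others did not. With RUNX1::ERG, AKAP12 stood in the middle of the order at 8.94 ± 0.0201 CPM per kb, within the range of AKAP11 (8.46 ± 2.52) and below AKAP8 (11.3 ± 2.37). PRKAR2B remained highest, at 38.6 ± 6.68 CPM per kb. AKAP1 (13.7 ± 0.539), PRKAR1A (12.8 ± 1.96) and AKAP8 followed it, and each overlapped the next. Below AKAP11 came PRKAR2A (5.85 ± 0.331), then AKAP9 (3.22 ± 0.743) and AKAP10 (2.98 ± 0.0113), which overlapped, and AKAP13 (0.0619 ± 0.0221).

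Expressed as a share of the summed per-kb level of the 7 anchors, AKAP12 made up 1.65% and 1.59% in the empty vector libraries and 18.8% and 18% in the RUNX1::ERG libraries. The sum over the anchors was 37.1 and 44.6 against 47.6 and 49.7 CPM per kb. AKAP1 went from 33.1% and 41.7% to 27.9% and 28.3% of the anchors. Among the 3 regulatory subunits in the set, PRKAR2B accounted for 60.4% and 61.3% with the empty vector and 66.6% and 68.1% with RUNX1::ERG. PRKAR2A accounted for 16.7% and 14.3% against 11% and 9.57%, and the share of PRKAR1A stayed between 22.3% and 24.4% in all 4 libraries. Of these 3, the type II beta subunit had the largest share in every library, and PRKAR1B was not part of the sum.

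**Figure D3:**
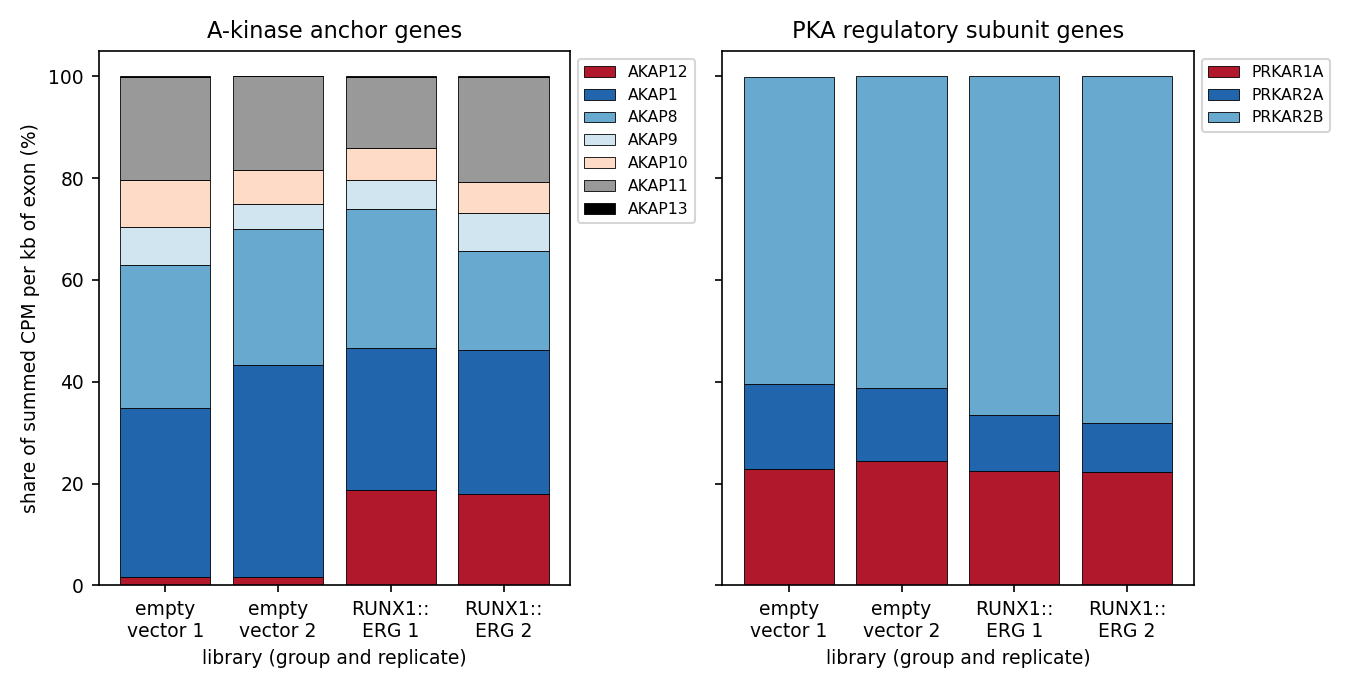
Share (vertical, in percent) of each gene in the summed CPM per kb of the 7 anchors (left) and the 3 regulatory subunits (right), for each library (horizontal). AKAP12 makes up 18.8% and 18% of the anchors with RUNX1::ERG, and PRKAR2B more than the other 2 regulatory subunits together in every library.

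Other genes of cAMP and PKA signalling were then compared, from 7 lists of 90 genes in all that hold none of the members. Of these, 71 passed the filter, and 8 rose and 0 fell with RUNX1::ERG at that threshold of the edgeR test. This is 11.3% of the genes tested, beside 3.64% of all genes tested that rose and 1.15% that fell. At an unadjusted p under 0.05, 17 were higher and 4 lower, or 23.9% and 5.63% of the 71, beside 10.7% and 7.26% of all genes tested. The DESeq2 Wald test and limma voom also called 0 lower, and called 9 and 7 higher. A gene that is high in one group only can pass the filter through that group, so these counts do not describe the lists in full. The 19 genes under the filter had at most 17 counts in a library. The median log2 fold change of the 71 was 0.18. Without RUNX1::ERG replicate 1, 3 of the 71 were called: ADCY6, PDE2A and SRC.

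On the side of cAMP production, ADCY6, an adenylyl cyclase that makes cAMP, had 2.01 and 1.43 CPM with the empty vector and 11.8 and 8.79 with RUNX1::ERG. It rose 5.99-fold (log2 2.58 ± 0.30 SE, adjusted p = 0.00076, edgeR). GNAI2, an inhibitory G protein subunit that lowers cyclase activity, rose from 66.6 and 71.7 to 119 and 104 CPM. The rise was 1.61-fold (log2 0.69 ± 0.16 SE, adjusted p = 0.035, edgeR), and it was not called without empty vector replicate 1 (0.63, adjusted p = 0.076, edgeR). The 9 other genes tested among G proteins and cyclases did not pass the test.

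On the side of cAMP breakdown, PDE2A, a phosphodiesterase stimulated by cyclic GMP, had 2.09 and 2.72 CPM with the empty vector and 14.9 and 10.9 with RUNX1::ERG. It rose 5.34-fold (log2 2.42 ± 0.28 SE, adjusted p = 0.00074, edgeR). Both RUNX1::ERG libraries lay far above both controls. The other 10 phosphodiesterases tested did not pass.

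PRKACA, the alpha catalytic subunit that the regulatory subunits hold, rose from 82.5 and 84.8 to 144 and 129 CPM. The rise was 1.63-fold (log2 0.71 ± 0.15 SE, adjusted p = 0.028, edgeR). The 6 other PKA subunits and inhibitors tested did not pass this edgeR test. Among them PRKACB, the beta catalytic subunit, named here after its values were seen, had a log2 fold change of 0.85 with groups that did not overlap (adjusted p = 0.064, edgeR). It was called by the DESeq2 Wald test, without the filter on low counts and under the replicate block. These settings also called more genes over all (1194, 1500 and 1733, against 737). PRKACB was not called by limma voom, with the other scalings or with halved counts. The groups of PKIA (log2 fold change 1.98, adjusted p = 0.32, edgeR) and PKIG (0.75, adjusted p = 0.25, edgeR) also lay apart, higher with RUNX1::ERG. Those of PRKX (-0.37, adjusted p = 0.25, edgeR) and PKIB (-0.32, adjusted p = 0.44, edgeR) lay apart and lower. Groups lay apart in 47.2% of all genes tested, higher in 25.1% and lower in 22.1%, so nothing is read from this. Of the 15 other anchors tested, RAB32, a small GTPase that anchors PKA at mitochondria, rose from 15.3 and 12.1 to 26.1 and 25.9 CPM (log2 fold change 0.93 ± 0.20 SE, adjusted p = 0.026, edgeR). SYNM, an intermediate filament protein that binds PKA, rose from 22 and 21 counts to 131 and 77 (log2 fold change 1.98 ± 0.47 SE, adjusted p = 0.04, edgeR), and lost its call with library totals as the scaling (adjusted p = 0.05) and with limma voom (adjusted p = 0.056).

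Among the CREB factors, coactivators and other cAMP effectors, 0 of 9 genes passed edgeR's test, 2 were higher at an unadjusted p under 0.05 (beside 10.7% of all genes tested), and DESeq2 and limma voom called 0 as well. Of 8 cAMP-CREB target genes tested, NR4A2, an orphan nuclear receptor, rose from 6.28 and 5.59 to 12.6 and 13.4 CPM (log2 fold change 1.13 ± 0.22 SE, adjusted p = 0.017, edgeR) and 7 did not pass. Of 10 AKAP12 binding partners, SRC, a tyrosine kinase held by AKAP12, was at 11.8 and 9.46 CPM with the empty vector and at 81.8 and 63.1 with RUNX1::ERG. It rose 6.82-fold (log2 2.77 ± 0.21 SE, adjusted p = 5.8e-05, edgeR), and the 9 other partners did not pass. PRKACA, RAB32, SYNM, GNAI2 and NR4A2 were not called without RUNX1::ERG replicate 1, at log2 fold changes of 0.62, 0.92, 1.69, 0.59 and 1.17.

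**Figure D4:**
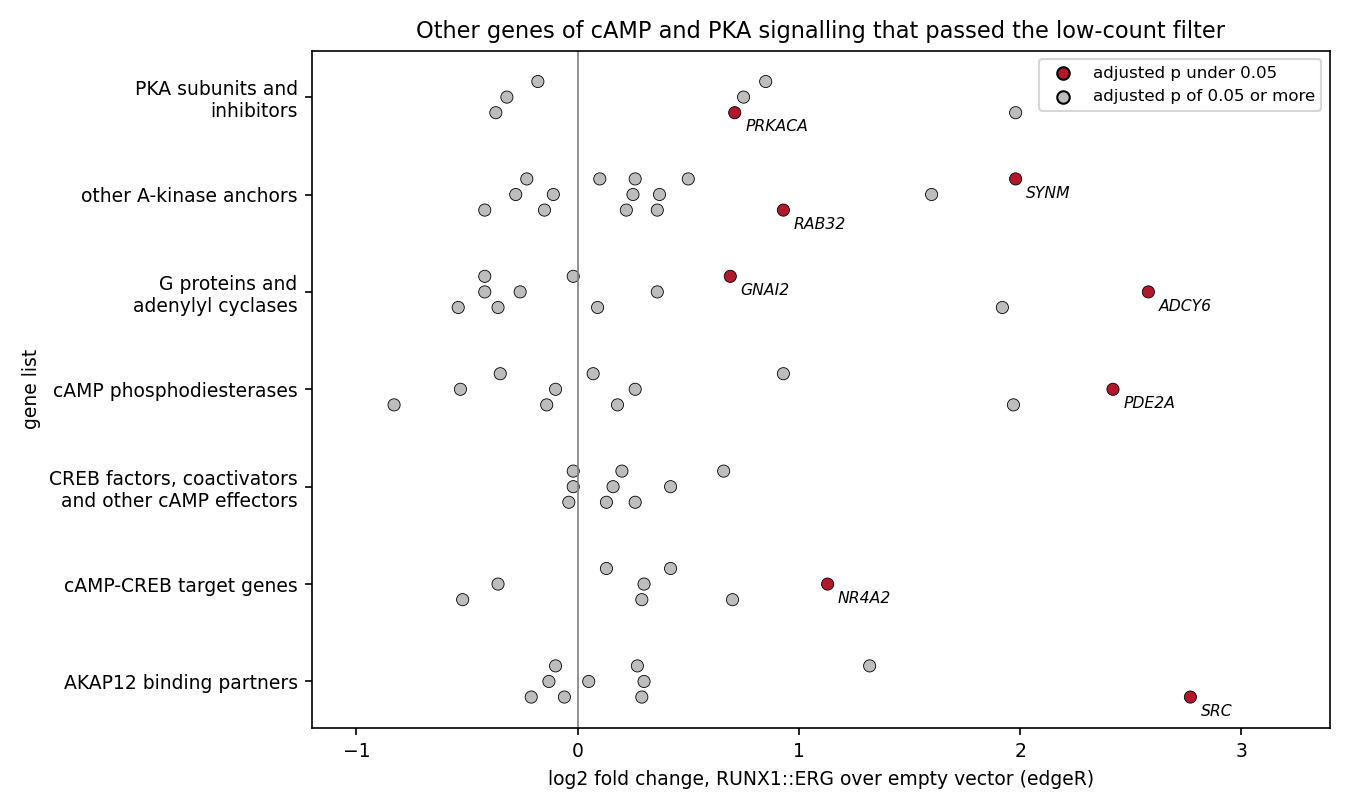
Log2 fold change of RUNX1::ERG over the empty vector (horizontal, edgeR) of the 71 tested genes in 7 lists of cAMP and PKA signalling (vertical), 1 point a gene. The 8 named genes with an adjusted p under 0.05 all lie to the right of 0, and most other genes lie close to 0 on either side.

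The genes whose pattern over the 4 libraries was most like that of AKAP12 were sought among 9129 genes with a mean of at least 10 CPM. Likeness was measured as the distance between log2 CPM values centred on each gene's mean. The 5 nearest were MLC1 (distance 0.38), THBS1 (0.43), PTGS1 (0.50), ITGA2B (0.73) and FYB1 (0.78). Their log2 fold changes were 3.41, 3.65, 3.26, 4.22 and 3.25. Because the rule picked genes by the same 4 libraries, fold changes near that of AKAP12 follow from the choice. Of the members, the nearest was AKAP13 at a distance of 2.25, and the other 8 were at 3.23 to 3.97.

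None of the tested genes next to AKAP12 on chromosome 6 rose. On one side, PLEKHG1 had 2, 0, 10 and 6 counts in the 4 libraries and was not tested. MTHFD1L, a mitochondrial enzyme of one-carbon metabolism, fell from 168 and 123 to 85 and 90.5 CPM (log2 fold change -0.73 ± 0.18 SE, adjusted p = 0.045, edgeR), and it was at -0.50 without empty vector replicate 1. The call of MTHFD1L was lost there and without RUNX1::ERG replicate 1 (adjusted p = 0.18 in both, edgeR), with library totals as the scaling (0.069) and with limma voom (0.052). On the other side, ZBTB2 and RMND1 were at 31.5, 40, 27.1 and 30.2 CPM and at 30, 31.6, 24.1 and 24.8 CPM. Their log2 fold changes were -0.32 and -0.33, and neither passed the test.

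AKAP12 is also expressed in endothelial cells and fibroblasts, so marker lists of other cell types were read beside it. The 8 endothelial markers summed to 5.13 and 4.99 CPM with the empty vector and 27.1 and 27.5 with RUNX1::ERG. PECAM1 made up most of the second sum, rising from 3.19 and 2.98 to 23.3 and 24.8 CPM (adjusted p = 5.8e-05, edgeR), and it was the only one of the 5 endothelial markers tested that passed. ESAM (1.49 and 1.19 against 2.53 and 1.92 CPM), CLDN5 (0.232 and 0.44 against 0.629 and 0.473) and CDH5 (0 and 0.0567 against 0.32 and 0.167) were higher in both RUNX1::ERG libraries without passing the test. So were 25.1% of all genes tested, called or not. CDH5 had 0 and 4 counts with the empty vector and passed the filter through the RUNX1::ERG libraries. TIE1 was at 0.183 and 0.326 against 0.32 and 0.139 CPM, and KDR, TEK and EMCN had at most 3 counts in a library. The 8 fibroblast markers summed to 6.29 and 6.86 against 24.9 and 22.3 CPM. Of the 3 tested, COL1A1 rose from 4.13 and 3.62 to 22 and 19.6 CPM (adjusted p = 0.0002, edgeR), while COL1A2 (log2 fold change 0.11) and PDGFRB (-1.09) did not pass, and PDGFRA, LUM and FAP had at most 3 counts in a library. The 8 lymphocyte and monocyte markers summed to 10.8 and 12.2 against 24.8 and 22.4 CPM. Of the 5 that passed the filter, CD14 rose from 0.183 and 0.425 to 3.85 and 1.99 CPM (adjusted p = 0.0058, edgeR) and LYZ from 6.97 and 9.9 to 18.1 and 18.7 CPM (adjusted p = 0.021, edgeR), and MS4A1 was at 0. The 14 megakaryocyte and platelet markers summed to 106 and 107 against 537 and 467 CPM. Of the 8 tested, ITGA2B, ITGB3 and TUBB1 rose by edgeR's test, and GP1BA and GP6 did not pass. ITGA2B had the highest level with RUNX1::ERG. PF4, PPBP and VWF also passed the test. With at most 8 counts in an empty vector library, they passed the filter through the RUNX1::ERG libraries, so no share of the list is given. The genes GP1BB, GP9, TREML1 and CLEC1B had at most 3 counts in a library. The part of these genes in the change of AKAP12 was not tested.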

How the data were processed

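WTS counts of 4 K562 libraries, 2 in each group, were used. The files deposited by the authors hold whole-number read counts for each NCBI gene number, unscaled, with 1 file per library. The study calls the replicates biological; p-values measure the spread between these libraries. Reads were aligned to hg19, and the submitters' processing notes name HISAT2 2.2.1 and featureCounts 2.0.1. The annotation, strand and pair settings are not given in the sources used here. Between 66.7% and 68.9% of the counts from 1 to 10 were even, so both mates of a pair may have been counted. Symbols came from RefSeq (GRCh38.p14), which matched 92.2% of the genes and all 10 members. Positions and exon lengths were read from GENCODE on GRCh37.

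The comparison was run with edgeR 4.0.16 under R 4.3.3: its filter on low counts (15394 genes kept), TMM scaling, the quasi-likelihood test, Benjamini-Hochberg adjustment over all genes tested and a threshold of 0.05, without a replicate block. The standard error was the log2 fold change divided by the square root of F. Likeness used log2 CPM with a prior count of 2. A count of 0 allows up to 3 counts, 0.0503 CPM in the smallest library, for counting error only. This holds if each pair was counted once, and the bound is higher if both mates were counted. The procedure was run on simulated counts with the same spread for every gene (dispersion 0.04). That checks the code and not the spread in these data. The alternatives were other scalings and filters, DESeq2 1.42.0, limma 3.58.1 voom, halved counts, a replicate block and leaving out each library.

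Members, lists and tests were chosen with earlier results of these data known. Besides the members, the text names pathway genes past the threshold, the 5 genes most like AKAP12, its 2 neighbours on each side and RUNX1 and ERG. The motif GGAA was added after the longer motifs had been searched. Marker genes and PRKAR2B's promoter were shown outside this rule. So were PRKACB, PKIA, PKIG, PRKX, PKIB, ADCY7 and PDE8A, pathway genes that did not pass the main test.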

Additional observations from a re-analysis of the deposited data

How the results depend on the processing

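The log2 fold change of AKAP12 ran from 3.65 to 3.86 over the 11 alternatives, a description only, since the set was chosen by this value. AKAP13 passed without a filter on low counts, under the replicate block and without empty vector replicate 1. PRKAR2B passed without a filter, under the block and without empty vector replicate 2. AKAP1 turned to 0.16 without empty vector replicate 2, AKAP8 to -0.07 without empty vector replicate 1 and to -0.21 without RUNX1::ERG replicate 1, and AKAP11 to -0.25 without RUNX1::ERG replicate 2. With one library left out, AKAP1 ran from -0.45 to 0.16, AKAP8 from -0.21 to 0.21, AKAP11 from -0.25 to 0.38, AKAP9 from 0.10 to 0.58, AKAP10 from -0.21 to 0.00, PRKAR2A from -0.27 to -0.13 and PRKAR1A from 0.13 to 0.46. The cause was not tested.

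Over all genes, 737 were called (76% higher), 1500 without a filter (64.1% higher), 1194 with the DESeq2 Wald test (66.7% higher) and 1733 with the replicate block (62.4% higher). With one library left out the number ran from 286 without RUNX1::ERG replicate 1 to 1336 without empty vector replicate 2 (54.9% higher). It was 1227 without empty vector replicate 1. Of the pathway genes, 8 were called, and 7 to 9 with the other scalings, filters and tests and with halved counts. It was 12 with the replicate block, of which 2 (ADCY7 and PDE8A) were lower, and 3 to 10 with one library left out. Libraries with the same number deviated from their group means with a correlation over genes of 0.27, a single value since the 2 deviations within a group mirror each other, but nothing in the labels ties a number to a common batch, so the comparison was not blocked. With the empty vector, AKAP13 rests on 24 and 27 counts, which limits its fold change.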
